A study of Mus musculus with 4 samples.

Results

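The genes described here encode transcription factors and inhibitors that act on the E-box, a short DNA motif of the form CANNTG. They are Zeb1 and Zeb2, the E-protein genes Tcf3, Tcf4 and Tcf12, the repressor genes Bhlhe40 and Bhlhe41, and the inhibitor genes Id1, Id2 and Id3. The members were the merged ATAC-seq peaks assigned to these 10 genes, 150 of 74695 in all. A peak was assigned to a gene when its centre lay inside the gene, or when that gene was the nearest protein-coding gene within 100 kb. Accessible chromatin had been mapped by ATAC-seq in sorted mouse brain parenchymal macrophages, in 2 groups named MDM and YSM with 2 libraries each. From the title, MDM was taken to mean monocyte-derived macrophages, while YSM is given without its meaning. All 4 libraries carried the genotype Ms4a3-Ai9, which joins a gene of granulocyte and monocyte progenitors to a Cre-dependent red fluorescent reporter, and the treatment DR-3x, which the labels do not explain. Whether each library was made from its own animal or from a pool is not stated.

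E proteins are basic helix-loop-helix factors that pair with one another or with lineage-specific partners and bind CANNTG. Id proteins have the helix-loop-helix but lack the basic region, so a dimer of an Id protein with an E protein does not bind DNA. Zeb proteins are zinc-finger and homeodomain repressors that bind E-boxes of the form CACCTG, and Zeb2 is known to maintain tissue identity in resident macrophages. Read on the opposite strand, that motif is CAGGTG. Bhlhe40 and Bhlhe41 (DEC1 and DEC2) are repressors that bind CACGTG, a motif of clock genes, and act in the self-renewal of tissue macrophages.

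The promoter sequences below, each the 250 bases before an annotated gene start, are shown because a merged peak overlapped each and because they differ in their E-boxes. They come from RefSeq (build GRCm38.p6, the same chromosomes as mm10). Each runs 5′ to 3′ on the strand of its gene, and capitals mark CANNTG and the core motif of the macrophage factor PU.1 (AGGAAGT, or ACTTCCT on the other strand). The first is that of Bhlhe41, at chr6:145865421-145865670 on the minus strand. The second is that of Id2, at chr12:25096093-25096342 on the minus strand. The third and the fourth belong to an outer and an internal start of Tcf12, at chr9:72111820-72112069 and chr9:71896097-71896346 on the minus strand.
Bhlhe41: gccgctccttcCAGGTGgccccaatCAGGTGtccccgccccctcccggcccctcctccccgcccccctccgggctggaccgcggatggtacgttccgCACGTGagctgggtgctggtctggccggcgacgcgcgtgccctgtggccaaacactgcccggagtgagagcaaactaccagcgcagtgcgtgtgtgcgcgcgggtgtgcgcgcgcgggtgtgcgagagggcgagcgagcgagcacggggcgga
Id2: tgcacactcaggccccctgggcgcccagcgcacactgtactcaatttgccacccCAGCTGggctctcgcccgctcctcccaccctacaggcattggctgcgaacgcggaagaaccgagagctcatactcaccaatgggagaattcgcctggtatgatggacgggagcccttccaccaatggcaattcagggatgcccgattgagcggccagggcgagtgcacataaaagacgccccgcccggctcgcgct
Tcf12 outer start: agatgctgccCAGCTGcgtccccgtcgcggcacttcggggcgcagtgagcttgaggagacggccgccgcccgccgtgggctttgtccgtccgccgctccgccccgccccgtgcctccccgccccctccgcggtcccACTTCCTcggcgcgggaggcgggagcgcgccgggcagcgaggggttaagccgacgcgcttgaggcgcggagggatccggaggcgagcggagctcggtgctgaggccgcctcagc
Tcf12 internal start: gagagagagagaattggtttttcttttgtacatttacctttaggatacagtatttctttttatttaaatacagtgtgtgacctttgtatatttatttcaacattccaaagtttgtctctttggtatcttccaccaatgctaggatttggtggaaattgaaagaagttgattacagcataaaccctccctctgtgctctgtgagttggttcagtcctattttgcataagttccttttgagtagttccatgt

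The Bhlhe41 window held the motifs of both repressor families. It had 2 copies of CAGGTG, which began 239 and 225 bases before the start, and 1 CACGTG, which began 153 bases before it. All 3 lay within the merged peak 145865476 to 145865740, which covered 195 of the 250 bases. Both motifs together occurred in 1.08% of 32817 promoter windows of the RefSeq table, and in 1.21% of the 11379 windows that overlapped a merged peak. At least 2 copies of CACCTG, on either strand, occurred in 2.07% and 1.20% of them. Of the 11 member windows searched, this was the 1 (9.09%) with both motifs and the 1 with at least 2 copies of CACCTG. It was shown for its E-boxes, so these shares are descriptions. Each of these E-box forms is also a match to CANNTG. A match describes these letters and shows no binding.

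The other windows held fewer E-boxes. The Id2 window had 1 CAGCTG, 196 bases before the start and inside the peak. CAGCTG occurred in 13.0% of all windows and in 11.6% of those with a peak. The outer Tcf12 window had 1 CAGCTG, 240 bases before its start, and 1 PU.1 core, 114 bases before it, both inside a peak that covered all 250 bases. The PU.1 core occurred in 7.69% of all windows and in 8.34% of those with a peak. The internal Tcf12 window had no CANNTG, as was so for 33.8% of all windows and 45.0% of those with a peak, and its GC content was 34.8% against 76.8% at the outer start. In all, 11 windows of 6 member genes were in the table, of which 7 overlapped a merged peak (63.6%, against 34.7% of all windows) and 5 held CANNTG (45.5%, against 66.2%). All 5 were among the 7 with a peak, and 55.0% of all windows with a peak held CANNTG. Each member window without a peak was of Zeb2, and those at its starts 45113253 and 45113279 overlapped for most of their length. The share over all windows was over 26994 genes, more than the 15389 protein-coding genes with a peak, whereas every member had peaks. Zeb1, Tcf4, Bhlhe40 and Id1 had no entry.

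None of the 150 peaks was in the authors' differential lists. The YSM list, of peaks that its name ties to higher accessibility in YSM, took 0 of them, and it held 1.48% of all merged peaks (1104 of 74695). The MDM list also took 0, and it held 0.145% (108 of 74695). A count of 0 of 150 allows a share of up to 2.0%, a limit for counting error only that lies above both background shares. At those shares, 2.22 YSM-listed and 0.217 MDM-listed peaks would have fallen among 150. The absence of listed peaks at these genes was therefore not distinguishable from the background. The files held no values per library, so no test between MDM and YSM was possible and no replicate error could be given.

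The members differed 10-fold in site number, from 4 merged peaks at Tcf3 to 40 at Tcf4. Between them came Id1 with 5, Id3 with 6, Bhlhe41 with 9, Id2 with 13, Bhlhe40 with 14, Zeb1 and Tcf12 with 18 each, and Zeb2 with 23. All 10 genes thus lay above the median of 3 merged peaks per protein-coding gene with a peak (15389 genes, upper quartile 6). Tcf4 ranked 31st of all protein-coding genes by number of peaks. Genes with many peaks more often held a listed peak, in shares of genes and not of peaks. Of the 1822 genes with at least 10 merged peaks, 13.3% held a YSM-listed peak and 2.14% an MDM-listed peak, against 4.27% and 0.539% of all genes with a peak. The 6 members in that class (Zeb1, Zeb2, Tcf4, Tcf12, Bhlhe40 and Id2) held 0.

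**Figure D1:**
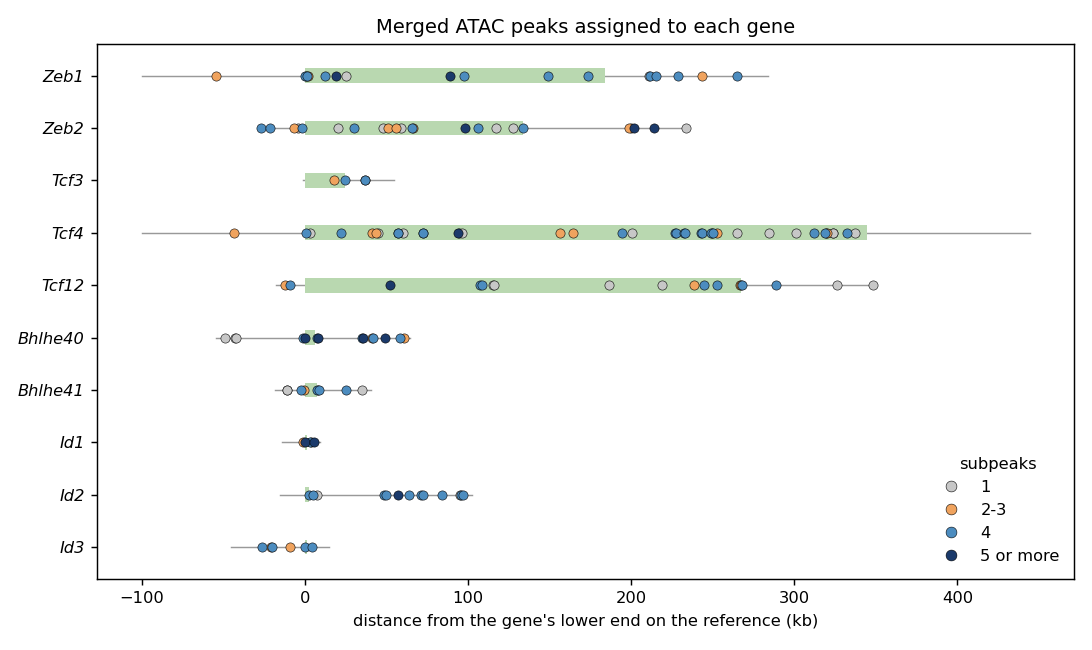
Position of each of the 150 merged peaks (points) from the lower end of its gene on the reference, in kb. Green bars are gene bodies, thin lines the reach within which peaks could be assigned, and colours the number of subpeaks, the library-level peaks combined into a merged peak. The peaks of Tcf4 lie within the gene, with 1 exception, and those of Id2 all lie on its higher-coordinate side.

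Site number went with the length of sequence that a gene could take peaks from, its body plus each flank to the midpoint of the gap to the next gene (at most 100 kb a side). Tcf4 had 544.5 kb and 7.35 peaks per 100 kb, close to the median of 7.13 over genes with a peak. Id1 had 23.2 kb, between the signal peptide peptidase gene H13 and Cox4i2, and the highest density of the members, 21.5 per 100 kb. Next came Bhlhe41 (15.3), Bhlhe40 (11.8), Id2 (11.1), Id3 (9.96) and Zeb2 (8.78). Tcf3 had 7.11, and Tcf12 (4.91) and Zeb1 (4.69) lay below the median. Among the 15389 genes with a peak, Id1 ranked 1110th by density and Zeb1 10224th. With each merged peak counted singly, the 5 Bhlhe and Id genes were thus the densest of the members, and the long genes Tcf4, Zeb2, Zeb1 and Tcf12 had the most sites. The order by density depended on that way of counting. With peaks within 1000 bp of each other joined, Zeb2 had 22 sites, Bhlhe40 and Id2 9 each and Id3 5, and Zeb2 was then denser than Bhlhe40, Id2 and Id3.

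**Figure D2:**
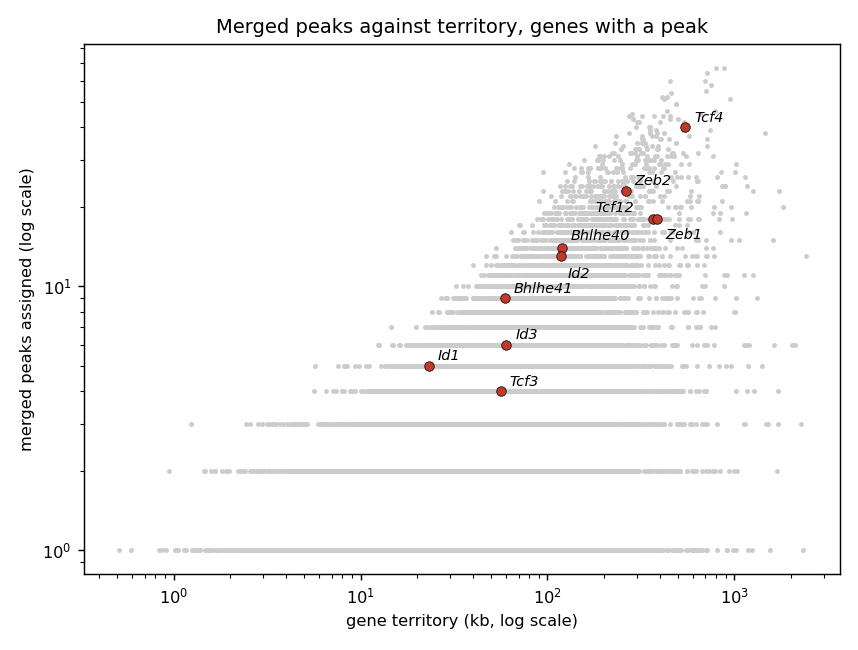
Merged peaks assigned to a gene against its territory in kb, both on log scales, for each protein-coding gene with a peak (grey) and the 10 members (red). Each member lies within the cloud of the other genes, Tcf4 at 40 peaks and Tcf3 at 4.

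The number of subpeaks gives how many library-level calls were combined, and with at most 3 of them at least 1 of the 4 libraries had no call. It does not say which library that was. Nor do 4 or more subpeaks show a call in each library. Merged peaks had up to 12 subpeaks from 4 libraries, so 1 library could give several. Of the 150 peaks, 82 (54.7%) had 4 or more subpeaks, against 57.7% of all merged peaks, and the median was 4 in both. Single-subpeak peaks made up 25.3% (38), against 20.3%. The families differed more among themselves. The share with 4 or more was 75% at the Id genes (18 of 24), 56.5% at the Bhlhe genes (13 of 23), 53.7% at the Zeb genes (22 of 41) and 46.8% at the E-protein genes (29 of 62). Shares also differed within families, with 66.7% at Zeb1 and 43.5% at Zeb2, and 64.3% at Bhlhe40 and 44.4% at Bhlhe41. Id2 alone gave 11 of the 18 at the Id genes. Over all assigned peaks the share was 73.9% within 1000 bp of a gene end, 52.9% elsewhere inside genes and 55.1% outside. Of the E-protein peaks 79.0% lay elsewhere inside the gene, and of the Id peaks 0%. Peaks of a gene are neighbours and not replicates, so these shares are descriptions. The highest share was at Id2, with 11 of 13, and the lowest at Zeb2, with 10 of 23 (43.5%).

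**Figure D3:**
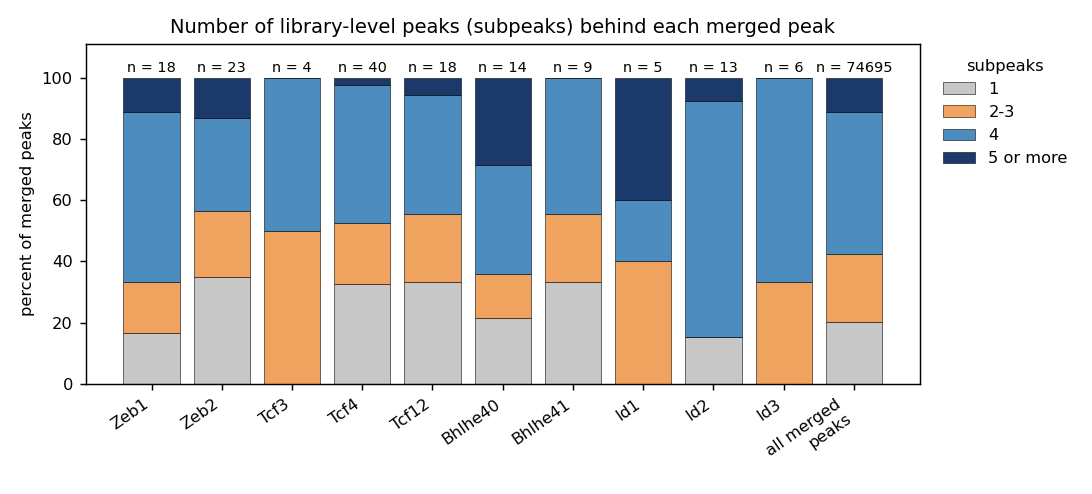
Percent of the merged peaks of each gene with 1, 2 to 3, 4, or 5 or more subpeaks, with the number of peaks above each bar and all 74695 merged peaks on the right. Single-subpeak peaks are missing at Tcf3, Id1 and Id3 and reach 34.8% at Zeb2, and Id1 has the largest part with 5 or more, 2 of its 5 peaks.

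Every member had at least 1 merged peak with 4 or more subpeaks within 1000 bp of a gene end. That was so for 66.2% of the 15389 genes with a peak, and for 71.2% of the 6492 genes with at least 4 peaks. Of the 150 peaks, 18 (12%) lay at a gene end, 70 (46.7%) elsewhere inside the gene and 62 (41.3%) outside it, against 22.2%, 48.4% and 29.4% of all assigned peaks. Among peaks whose centre lay outside the gene, the median distance was 26807 bp for the members (74 peaks) and 9881 bp for all assigned peaks. Beyond 10000 bp lay 64.9% and 49.8% of them. Per member the median ran from 2070 bp at Id1 to 61256 bp at Id2. Such a distance is bounded by the reach of the gene, which was 13791 and 8252 bp at Id1 and 100000 bp on the higher-coordinate side of Id2.

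Zeb2 (chromosome 2, 44983512 to 45117442) had 13 of its 23 peaks inside the gene. Its start-proximal peak, 45117115 to 45117394 with 4 subpeaks, was centred 188 bp downstream of the outermost start, and the 250 bases before that start had no peak. The site of most subpeaks, 6, lay inside the gene at 45081376 to 45081800. Outside, 5 peaks lay upstream, 64484 bp or more from the gene, and 5 downstream. The upstream ones included 2 with 5 subpeaks each, at 45185290 to 45185554 (67980 bp) and 45197373 to 45197775 (80132 bp). The gap on that side, to the activin receptor gene Acvr2a, was 3696666 bp. Within its nearer part, a further 40 merged peaks beyond 100 kb had Zeb2 as their nearest protein-coding gene, out to 1754 kb. Of those, 21 had 4 or more subpeaks and 0 were in either list.

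Zeb1 (chromosome 18, 5591327 to 5775468), the paralogue of Zeb2, had 18 peaks, 11 of them inside. Its share with 4 or more subpeaks was 66.7% (12 of 18), above that of Zeb2. A group of 4 peaks lay from 5591403 to 5593453, at the lower end of the gene, with 4, 1, 4 and 3 subpeaks. The widest member peak of all, 544 bp with 5 subpeaks, lay inside Zeb1 at 5609976 to 5610519, and the one with most subpeaks, 6, at 5680140 to 5680546. On the higher-coordinate side, 6 peaks lay 27129 to 80935 bp away.

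Among the E proteins, Tcf4 (E2-2, the factor of plasmacytoid dendritic cells, chromosome 18, 69343429 to 69687967) had 39 of its 40 peaks inside the gene. The other lay 43549 bp away. Of the 40, 19 had 4 or more subpeaks and 13 a single one. The site with most, 7 subpeaks over 529 bp, lay at 69437253 to 69437781, 94088 bp from the nearer gene end. With peaks within 1000 bp of each other joined, 29 sites remained.

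Tcf12 (HEB, chromosome 9, 71844252 to 72111893) had 12 of 18 peaks inside. Its site with most subpeaks, 7 over 489 bp, at 71896118 to 71896606, was at the internal start whose sequence is given above, not at the outer ones. That peak covered 229 of the 250 bases before the start. The outer end of the gene carried 3 peaks, 72111103 to 72111388, 72111494 to 72111727 and 72111819 to 72112069, with 3, 2 and 4 subpeaks. Tcf3 (E2A, chromosome 10, 80409541 to 80433976) had the fewest peaks, 4. That at its higher-coordinate end, where transcription starts, 80433820 to 80434201 with 4 subpeaks, was centred 34 bp outside the gene. Of the others, 1 was inside, with 2 subpeaks, and an adjoining pair, with 4 and 2, lay 12215 and 12417 bp away.

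The Bhlhe genes, a paralogous pair on chromosome 6, had no peak centred inside the gene. Bhlhe40 (108660629 to 108666925) had 14 peaks, of which 4 had 5 or 6 subpeaks. These lay at its lower end (108660225 to 108660626, 5 subpeaks) and on its higher-coordinate side, at 108668179 to 108668714, 108695788 to 108696218 and 108709676 to 108710067 (6 each), 1521, 29078 and 42946 bp away. On the lower side, the 3 peaks beyond 40 kb had a single subpeak each. Bhlhe41 (145858243 to 145865420) had 9 peaks, none with more than 4 subpeaks. At its start, 145865476 to 145865740, 145866124 to 145866364 and 145866515 to 145866757 had 4, 3 and 4 subpeaks, and 3 of its other 6 peaks had 1. With genes of every annotated kind competing for peaks, Bhlhe40 retained 2 of its 14 (7 went to the long non-coding gene Gm35359 and 5 to 0610040F04Rik) and Bhlhe41 6 of 9.

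The Id genes, which are short, also had no peak centred inside. Id2 (chromosome 12, 25093799 to 25096092) had all of its 13 peaks upstream of its start, on the side of a gap of 1210701 bp to Rnf144a. That at its start, 25096180 to 25096409, had 4 subpeaks and its centre 202 bp away. Of the 13, 10 lay 46383 to 94479 bp upstream, with 9 of these at 4 or 5 subpeaks. A further 32 peaks beyond 100 kb, out to 552.7 kb, had Id2 as the nearest protein-coding gene, 18 of them with 4 or more subpeaks and 0 of them listed. Within 50 kb, 5 of the 13 peaks were left. The long non-coding gene Gm36287 was nearer to 10 of the 13, and with genes of every kind Id2 retained 3, so the assignment of the distal peaks to Id2 depends on the gene set used.

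Id1 (chromosome 2, 152736251 to 152737410), a direct target of BMP and SMAD signalling, had 5 peaks, all within 4460 bp. That at its lower end, 152735960 to 152736421, had 7 subpeaks over 462 bp, and another, 152741655 to 152742086, had 6. The other 3 had 3, 4 and 3. Id3 (chromosome 4, 136143822 to 136145392), a further BMP target and a factor of liver-resident macrophages, had 6 peaks with 4 subpeaks (4 peaks) or 2 (2 peaks). That at its start, 136143684 to 136143896, was centred 32 bp outside the gene. Of the others, 4 lay upstream, 9162 to 26524 bp away, and 1 downstream at 2569 bp. With genes of every kind, Id3 retained 2 of its 6 peaks and Id1 4 of 5. Within 20 kb, Id3 had 3 and Bhlhe40 had 4.

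The nearest listed peak, whatever gene it was assigned to, lay far from most members. The nearest YSM-listed peak was 49.3 kb from Id1, at 152686890 to 152687111 (2 subpeaks) inside H13. It was the 1 listed peak within 100 kb of any member. Over genes with a peak, 11.6% lay within 100 kb of a YSM-listed peak and 1.655% within 100 kb of an MDM-listed one. Bhlhe40 was next, with 2 YSM-listed peaks at 108873966 to 108874192 and 108874439 to 108874946 (3 and 6 subpeaks), the nearer 207.2 kb above it, and assigned to Gm6749. For Tcf3 it was 344.3 kb, at a peak inside Sbno2. For the others it ran from 651.3 kb (Tcf4) to 3354 kb (Bhlhe41). The members' median was 942.6 kb, against 872.0 kb over 15383 genes with a peak, and 5 of the 10 lay above that value. For MDM-listed peaks the members' median was 9262 kb, against 8575 kb over 14142 genes, and the nearest was 1934 kb from Bhlhe41. The members' medians were thus close to those over genes at large. Of the 20 protein-coding genes that flank the members, 1 held a listed peak, H13 below Id1, and 4.80% of all genes with a peak held one. The others were Cox4i2 (Id1), Zfp438 and Arhgap12 (Zeb1), Gtdc1 and Acvr2a (Zeb2), Uqcr11 and Onecut3 (Tcf3), Mc2r and Ccdc68 (Tcf4), Cgnl1 and Zfp280d (Tcf12), Itpr1 and Arl8b (Bhlhe40), Rassf8 and Sspn (Bhlhe41), Kidins220 and Rnf144a (Id2), and Rpl11 and E2f2 (Id3).

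**Figure D4:**
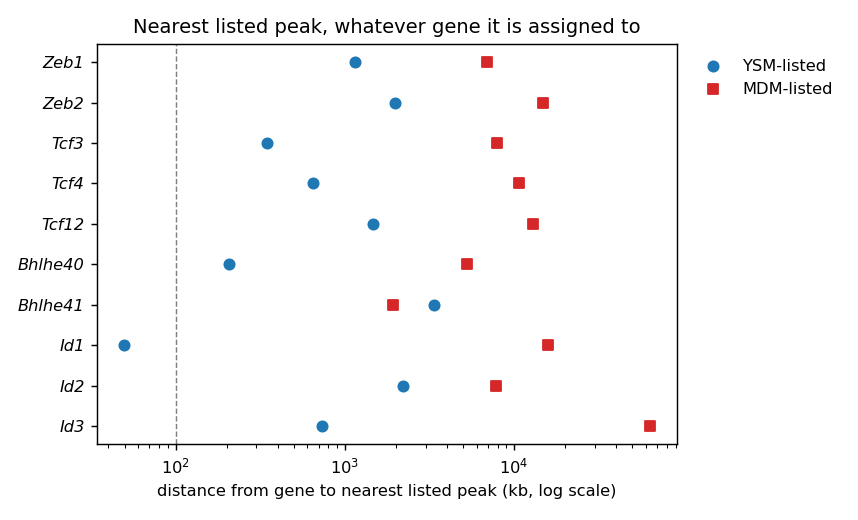
Distance in kb (log scale) from each gene to the nearest YSM-listed (circles) and MDM-listed (squares) peak, with the 100 kb limit dashed. Id1, at 49.3 kb from a YSM-listed peak, is the 1 gene left of the line, and Bhlhe41 is the 1 gene nearer to an MDM-listed than to a YSM-listed peak.

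Genes that work with the members are described by counts, in lists chosen with earlier results of these data known. Listed peaks were few in each list, and differences among the lists were not tested. The 11 BMP and SMAD genes, which act upstream of Id transcription, held 100 merged peaks and 2 YSM-listed ones. These were at the BMP receptor gene Bmpr1a (34502572 to 34502949 on chromosome 14, at a gene end, 4 subpeaks) and inside the BMP-activated Smad1 (79389309 to 79389571 on chromosome 8, 2 subpeaks). Smad6, an inhibitor of that pathway, had the most peaks of the list, 22. The 10 genes of the Snail family and corepressors held 39 peaks, and also 2 YSM-listed ones. These lay inside the corepressor gene Rcor1 (111093835 to 111094126 on chromosome 12, 2 subpeaks) and 57165 bp from the deacetylase gene Hdac2 (36917031 to 36917234 on chromosome 10, 2 subpeaks). Ctbp2, a corepressor that Zeb proteins recruit, held 15 peaks. The 13 helix-loop-helix partner genes held 73 peaks and the 10 clock genes 50, with 0 listed in either. Hes1, a Notch-induced repressor, led the former with 24 and Arntl the latter with 17. No list held an MDM-listed peak. With 4 YSM-listed peaks among 262 in all (1.53%, against 1.48% of all merged peaks), the lists together were at the background share.

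The labelled cell type was checked against markers of macrophages and of other cells. All 10 macrophage and microglia markers had merged peaks, 73 in all, with 69.9% at 4 or more subpeaks, among them Csf1r, Cx3cr1, P2ry12 and Spi1. Of 21887 protein-coding genes, 15389 had a merged peak, and 58.2% of all assigned peaks had 4 or more subpeaks. The neutrophil markers S100a8, S100a9 and Mpo had 0 peaks, and Elane had 1 with at most 3 subpeaks. Of the lymphocyte markers, Cd3g had 0 peaks, Cd3e had 1 with at most 3 subpeaks, and Ms4a1 had 5, of which 4 had 4 or more subpeaks. All 6 markers of neurons, astrocytes and oligodendrocytes had peaks, 17 in all, and all 3 endothelial markers had them, also 17. In each of these lists 52.9% had 4 or more subpeaks. Having a peak thus did not set the macrophage markers apart from these. The median number of peaks per gene was 7 for the endothelial and 5 for the macrophage markers. The oligodendrocyte marker Mog held a YSM-listed peak with 4 subpeaks, 5472 bp from the gene, the 1 listed peak at the markers reported here. An accessible site at a gene does not show its expression, and the part of other cells in these peaks was not tested.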

How the data were processed

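ATAC-seq libraries of 4 samples (MDM 1 and 2, YSM 1 and 2) were processed by the authors with Trimmomatic 0.39, Bowtie2 2.2.5, Picard and HOMER on mm10, per the submitters' processing notes. Peaks were called per library and merged with mergePeaks, per the file headers. Their settings and any Tn5 shift were not given in the sources used here, and depth per library was not analysed here. The score column that the authors deposited was 1 in all merged peaks, had no stated meaning in the 2 differential lists, and was not used. The lists' names tie them to DESeq2, whose thresholds were not given in the sources used here. No column held values per sample.

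A subpeak number was read from each peak's name: all 15127 peaks with 1 subpeak were 201 bp wide, and 0 peaks were wider than their subpeaks times 201 bp. Coordinates are 1-based. Peaks were assigned to 21887 protein-coding genes of RefSeq GRCm38.p6, whose table gives no exons, so exonic and intronic sites were not told apart. 71172 peaks (95.3%) had a gene within 100 kb, and a centre inside several genes went to each. The assignment was tested on simulated peaks. Listed peaks matched merged peaks by coordinates. Promoter windows were searched on both strands. Python 3.11.15, pandas 2.3.3 and numpy 2.4.6 were used.

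No test was run, since peaks are not replicates. Intervals and limits are at 95% or 3 counts and cover counting error only. The members, lists and motifs were chosen with earlier results of these data known. All 10 genes, their flanking genes, partner genes with a listed peak and the partner gene with most peaks in each list are named. A marker of the lymphocyte list is not reported here. Genes of like pattern were not sought, since no values per library were held. The alternatives were other distance limits, gene sets, peak filters and ways of joining peaks.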

Additional observations from a re-analysis of the deposited data

How the results depend on the processing

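Of 59 values of the 6 summary results under 10 alternatives, 54 stayed within 1.5 times the first count, or within its 95% exact binomial interval or, for the median of subpeaks, its quartiles. The other 5 came from alternatives that could move the value in 1 direction only, though how far was not fixed. With every member gene within 100 kb of a peak counted, whatever gene was nearer, 247 peaks and 1 YSM-listed peak, at Id1, were assigned. With peaks of 4 or more subpeaks alone, 82 peaks were left, and with 2 or more, 73.2% of the peaks had at least 4. With no distance limit, chosen after seeing the data, 232 peaks were assigned. The share with at least 4 subpeaks was not computed among peaks chosen for it. MDM-listed peaks numbered 0 under each alternative, and YSM-listed peaks 0 under each but the one named. The shorter distance limits, the subpeak filters and the wider gene set could only take member peaks away. Their counts of 0 listed peaks were therefore fixed in advance, although they are among the 54 values. The median of subpeaks among peaks of 4 or more could not fall below 4, and it is also among the 54. Single genes moved more: with genes of every annotated kind, Bhlhe40 fell from 14 peaks to 2, Id2 from 13 to 3 and Id3 from 6 to 2, and with every gene within 100 kb Tcf3 went from 4 to 25 and Id1 from 5 to 42. Leaving out a replicate could not be run, for want of values per library. No paired analysis was possible because the deposited lists hold no values per library.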
